A study of Rattus norvegicus with 30 samples.

Results

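Cyp2a1 and Hsd17b2 are rat genes whose enzymes act on steroid hormones, and both were followed across doses and times of beta-naphthoflavone (BNF) in cultured rat hepatocytes. They are 2 of the 14217 genes measured and were selected on their measured signals, because both rose over vehicle at both doses. Their differences from vehicle are therefore given as descriptions with no test. The comparisons that carry a test here, between the doses and between the times, used the same arrays.

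Cyp2a1 is a cytochrome P450 of the endoplasmic reticulum that adds a hydroxyl group to testosterone, a reaction long used as a marker of P450 activity in rat liver. Hsd17b2, a hydroxysteroid dehydrogenase, oxidises estradiol to estrone and testosterone to androstenedione, so it turns potent sex steroids into weaker ones. BNF binds the aryl hydrocarbon receptor (AhR), which then enters the nucleus, pairs with ARNT and switches on genes such as Cyp1a1. Liver clears steroids by hydroxylation, by oxidation or reduction, and by conjugation with glucuronic acid or sulfate.

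Primary hepatocytes from male Sprague Dawley rats were bought frozen, thawed, plated on collagen and overlaid with Matrigel, and were dosed on day 3 of culture. The 6 groups received 1 µM BNF, 100 µM BNF or vehicle alone for 24 or 48 h. BNF was dosed from solutions in dimethyl sulfoxide (DMSO), and the vehicle groups are labelled 1% DMSO. Each group held 5 arrays, 30 in all, each from its own culture well. The labels give no animal or donor lot for a well, so p-values measure the spread between wells.

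Both genes were read by 1 probe set each that the platform annotation assigns to that gene alone, 1387511_at for Cyp2a1 and 1387156_at for Hsd17b2. Another probe set, 1369275_s_at, is assigned to Cyp2a1 and Cyp2a2 together, and Cyp2a2 has one of its own, 1369424_at. Cyp2a1 and Cyp2a2 are close relatives, so part of the signal of one could come from the RNA of the other. Signals are scaled array intensities, and a level is compared only within a probe set.

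The start-site sequence of Cyp2a1 is shown because the gene rose with an AhR ligand. It lies on the plus strand of rat chromosome 1 at chr1:91359028-91359327 in the RefSeq annotation of assembly GRCr8, a 300-base stretch around the transcription start. It is set beside its neighbour Cyp2a3, at chr1:91299334-91299633 on the plus strand, which passed the test at neither dose. It is also set beside Cyp1b1, an AhR-induced P450, at chr6:21094315-21094614 on the plus strand. Capitals mark GCGTG, the core of the element that AhR and ARNT bind, searched on both strands (CACGC on the other), and TATAAA, the TATA box, searched on the gene's strand.
Cyp2a1: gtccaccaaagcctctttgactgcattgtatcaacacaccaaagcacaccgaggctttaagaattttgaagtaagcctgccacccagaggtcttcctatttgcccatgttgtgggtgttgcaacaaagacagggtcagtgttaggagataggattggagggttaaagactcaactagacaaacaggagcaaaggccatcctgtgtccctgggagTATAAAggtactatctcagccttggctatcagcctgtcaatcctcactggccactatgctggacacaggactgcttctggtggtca
Cyp2a3: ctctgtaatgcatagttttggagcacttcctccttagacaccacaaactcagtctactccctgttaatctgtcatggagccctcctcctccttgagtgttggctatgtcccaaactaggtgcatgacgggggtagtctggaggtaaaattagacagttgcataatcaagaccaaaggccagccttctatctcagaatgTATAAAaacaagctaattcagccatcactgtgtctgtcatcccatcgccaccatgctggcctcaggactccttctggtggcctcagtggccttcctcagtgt
Cyp1b1: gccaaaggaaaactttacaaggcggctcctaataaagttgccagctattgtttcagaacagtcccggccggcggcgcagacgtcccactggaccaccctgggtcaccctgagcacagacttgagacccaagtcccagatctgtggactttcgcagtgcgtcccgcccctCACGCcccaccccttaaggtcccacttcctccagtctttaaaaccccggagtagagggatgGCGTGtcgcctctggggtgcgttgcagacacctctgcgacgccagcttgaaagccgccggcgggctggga
The Cyp2a1 and Cyp2a3 stretches held 0 copies of GCGTG and the Cyp1b1 stretch held 2, while 29.7% of the 33469 promoters in the table held at least 1. TATAAA lay 36 bases before the start in Cyp2a1 and 52 in Cyp2a3, and 8.8% of all promoters held it. The same stretch of Cyp1a2, another AhR-induced P450, held 0 copies of GCGTG and TATAAA 39 bases before its start. In Nqo1, Tiparp and Ahrr, also listed here as AhR targets, it held 1, 1 and 3 copies of GCGTG. The matches describe these letters only, and elements farther from the start were not searched. The promoters used here held no Hsd17b2 entry, so its sequence is not shown.

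Cyp2a1 went up at either dose, and its vehicle arrays overlapped between the times. In vehicle at 24 h the Cyp2a1 signals of replicates 1 to 5 were 3273.5, 3466.0, 3189.7, 3227.4 and 3280.9, a mean of 3287 ± 106.4 (SD, n = 5). At 1 µM and 24 h the Cyp2a1 signals were 6672.7, 6983.8, 5624.2, 6622.0 and 6309.8, a mean of 6443 ± 516.1 (SD, n = 5). At 100 µM and 24 h they were 13307.4, 11636.4, 13873.0, 12657.3 and 13196.9, a mean of 12930 ± 844.2 (SD, n = 5). Vehicle was lowest, 100 µM was highest, and no array of a 24 h group overlapped another group. Against vehicle these were Cyp2a1 rises of 1.955-fold (95% interval 1.789 to 2.137) at 1 µM and 3.929-fold (3.595 to 4.294) at 100 µM.

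At 48 h the same order held for Cyp2a1. In vehicle the Cyp2a1 signals were 2930.0, 3887.8, 3327.8, 3458.1 and 3754.4, a mean of 3472 ± 376.6 (SD, n = 5). At 1 µM and 48 h they were 8735.9, 8638.4, 7635.0, 8307.8 and 7976.4, a mean of 8259 ± 459.1 (SD, n = 5). At 100 µM and 48 h they were 12932.1, 14362.5, 13141.0, 13177.3 and 12901.9, a mean of 13300 ± 604.8 (SD, n = 5), with replicate 2 standing above the other 4. No group overlapped another at 48 h. The Cyp2a1 rises over vehicle were 2.388-fold (95% interval 2.185 to 2.609) at 1 µM and 3.848-fold (3.521 to 4.205) at 100 µM.

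Hsd17b2 rose at both doses as well, but it stood at a lower signal at 48 h than at 24 h in every treatment. In vehicle at 24 h the Hsd17b2 signals of replicates 1 to 5 were 977.7, 1335.4, 911.5, 1161.1 and 1104.7, a mean of 1098 ± 165.6 (SD, n = 5). At 1 µM and 24 h the Hsd17b2 signals were 2314.1, 2252.1, 2345.1, 2047.9 and 2103.9, a mean of 2213 ± 130.7 (SD, n = 5). At 100 µM and 24 h they were 5164.0, 4890.8, 5373.2, 4051.5 and 4087.7, a mean of 4713 ± 612.3 (SD, n = 5). The 3 groups of Hsd17b2 values at 24 h did not overlap. The rises over vehicle were 2.03-fold (95% interval 1.673 to 2.464) at 1 µM and 4.301-fold (3.545 to 5.22) at 100 µM.

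At 48 h the Hsd17b2 signals in vehicle were 584.4, 393.7, 555.6, 446.4 and 650.8, a mean of 526.2 ± 104.5 (SD, n = 5). At 1 µM and 48 h they were 738.9, 749.6, 738.9, 668.5 and 569.3, a mean of 693 ± 76.34 (SD, n = 5). At 100 µM and 48 h they were 1184.9, 1871.0, 1359.5, 1718.4 and 1135.5, a mean of 1454 ± 326.5 (SD, n = 5). The 1 µM arrays overlapped the vehicle arrays, and the 100 µM arrays were above both. The Hsd17b2 rises over vehicle were 1.332-fold (95% interval 1.098 to 1.616) at 1 µM and 2.754-fold (2.269 to 3.342) at 100 µM.

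**Figure D1:**
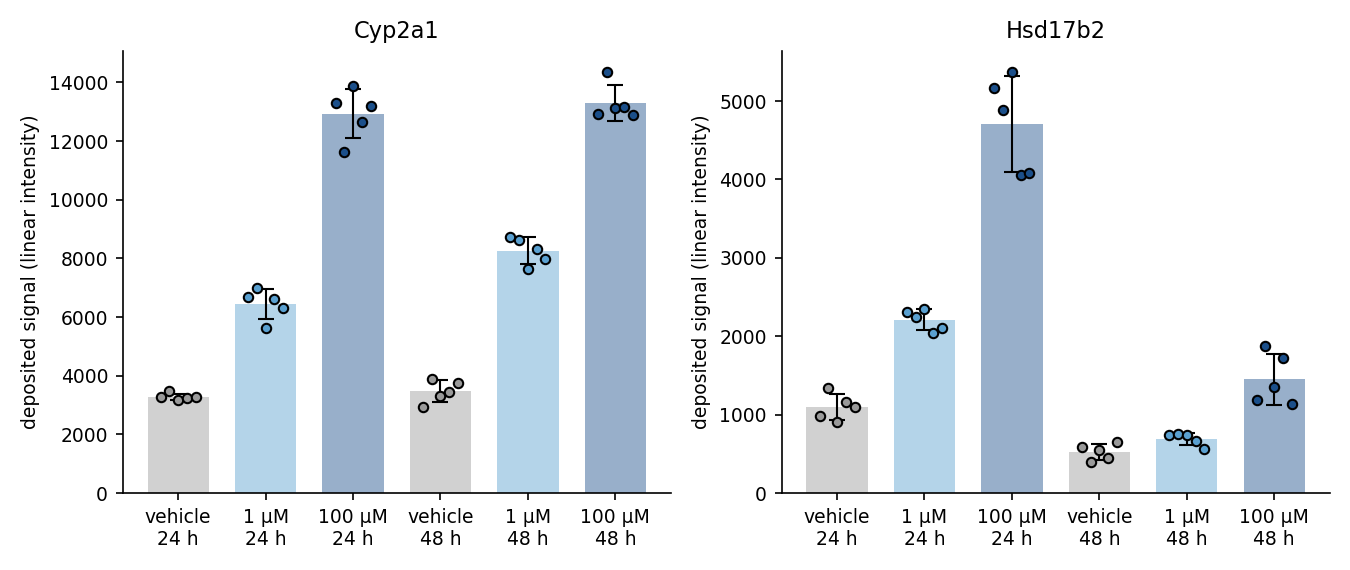
Deposited signal (linear intensity, axis from 0) of Cyp2a1 and Hsd17b2 on each of the 30 arrays (points), with bars for the group mean and whiskers for the SD (n = 5), by dose and time. Cyp2a1 sits near the same vehicle level at both times, while each Hsd17b2 group at 48 h lies below the same treatment at 24 h.

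In these contrasts with vehicle, which chose the genes, the share of all genes called higher (limma, Benjamini-Hochberg adjusted p up to 0.05) was 1.91% at 1 µM and 24 h, 10.7% at 100 µM and 24 h, 0.288% at 1 µM and 48 h, and 8.79% at 100 µM and 48 h. The share with a higher mean and no overlap with vehicle was 2.35%, 6.89%, 1.55% and 6.66% in the same order, against both genes in every contrast but 1 µM at 48 h, where Cyp2a1 alone did not overlap. By size of rise, Cyp2a1 held rank 266, 22, 104 and 13 of 14217 in that order, and Hsd17b2 rank 225, 15, 1244 and 60. On the log2 scale, the Hsd17b2 rise at 1 µM was 48.5% of that at 100 µM at 24 h and 28.3% at 48 h. For Cyp2a1 these shares were 49% at 24 h and 64.6% at 48 h.

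The probe set shared with Cyp2a2 gave the same order of groups within each time. Its signal at 24 h was 6679 ± 533.2 in vehicle, 11780 ± 565.8 at 1 µM and 21550 ± 1450 at 100 µM (SD, n = 5 each). At 48 h it was 5980 ± 587.9, 13860 ± 1085 and 22770 ± 2223 (SD, n = 5 each). All 4 rises of the shared probe set were without overlap, 1.766-fold at 1 µM and 3.229-fold at 100 µM after 24 h, then 2.321-fold and 3.808-fold after 48 h. Cyp2a2, a male-predominant testosterone hydroxylase, had a signal on its own probe set of 1587 ± 274.5 in vehicle and 2114 ± 234.1 at 100 µM at 24 h (SD, n = 5 each). Cyp2a2 rose 1.34-fold at 100 µM and 24 h (limma adjusted p = 0.014). Its other log2 differences from vehicle, 0.33 at 1 µM and 24 h, 0.43 at 1 µM and 48 h and 0.22 at 100 µM and 48 h, did not pass (adjusted p = 0.138, 0.116 and 0.266).

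Between the doses, both genes were higher at 100 µM than at 1 µM at both times. At 24 h the difference was 2.009-fold for Cyp2a1 (95% interval 1.839 to 2.196, limma adjusted p = 1.31e-12) and 2.119-fold for Hsd17b2 (1.746 to 2.571, adjusted p = 2.09e-06). At 48 h it was 1.612-fold for Cyp2a1 (1.475 to 1.761, adjusted p = 1.55e-09) and 2.067-fold for Hsd17b2 (1.704 to 2.509, adjusted p = 1.26e-06). All 5 arrays at 100 µM were above all 5 at 1 µM for each gene and time. The share of all genes without overlap was not counted between the doses. Of all genes, 7.72% differed between the doses at 24 h and 14% at 48 h, in either direction. Cyp1a1, the best known AhR target, did not pass between the doses at 24 h, with a log2 difference of 0.42 (adjusted p = 0.255). At 48 h Cyp1a1 was higher at 100 µM, by 1.19 (adjusted p = 7.84e-05).

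Between the times the genes parted. Hsd17b2 fell from 24 to 48 h in all 3 treatments, 2.103-fold in vehicle (limma adjusted p = 7.23e-07), 3.205-fold at 1 µM (adjusted p = 1.13e-10) and 3.284-fold at 100 µM (adjusted p = 5.11e-11). No array at 48 h reached the lowest at 24 h of the same treatment. Cyp2a1 differed by 0.07 log2 units in vehicle (95% interval -0.06 to 0.20, adjusted p = 0.517) and by 0.04 at 100 µM (-0.09 to 0.17, adjusted p = 0.751), and these groups overlapped. At 1 µM Cyp2a1 was 1.284-fold higher at 48 h than at 24 h (1.175 to 1.403, adjusted p = 9.71e-05), with no overlap. Of all genes, 17.2% differed between the times in vehicle, 13.5% at 1 µM and 17.1% at 100 µM, in either direction (limma calls). The share of all genes without overlap was not counted between the times.

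Ordered by mean, the Cyp2a1 groups ran from vehicle at 24 h through vehicle at 48 h, 1 µM at 24 h, 1 µM at 48 h and 100 µM at 24 h to 100 µM at 48 h. The pair of vehicle groups overlapped, as did the pair of 100 µM groups. The Hsd17b2 groups ran from vehicle at 48 h through 1 µM at 48 h, vehicle at 24 h, 100 µM at 48 h and 1 µM at 24 h to 100 µM at 24 h. Hsd17b2 after 48 h at 100 µM overlapped vehicle at 24 h, and 1 µM overlapped vehicle at 48 h.

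Whether the effect of BNF itself differed between the times was tested as the difference of the log2 differences from vehicle. For Hsd17b2 it was -0.61 at 1 µM (95% interval -1.003 to -0.21, limma adjusted p = 0.27) and -0.64 at 100 µM (-1.04 to -0.25, adjusted p = 0.122). For Cyp2a1 it was 0.29 at 1 µM (0.11 to 0.47, adjusted p = 0.249) and -0.03 at 100 µM (-0.21 to 0.15, adjusted p = 0.938). None of the 4 values passed the threshold after adjustment, and genes called made up 0.0914% at 1 µM and 0.788% at 100 µM.

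**Figure D2:**
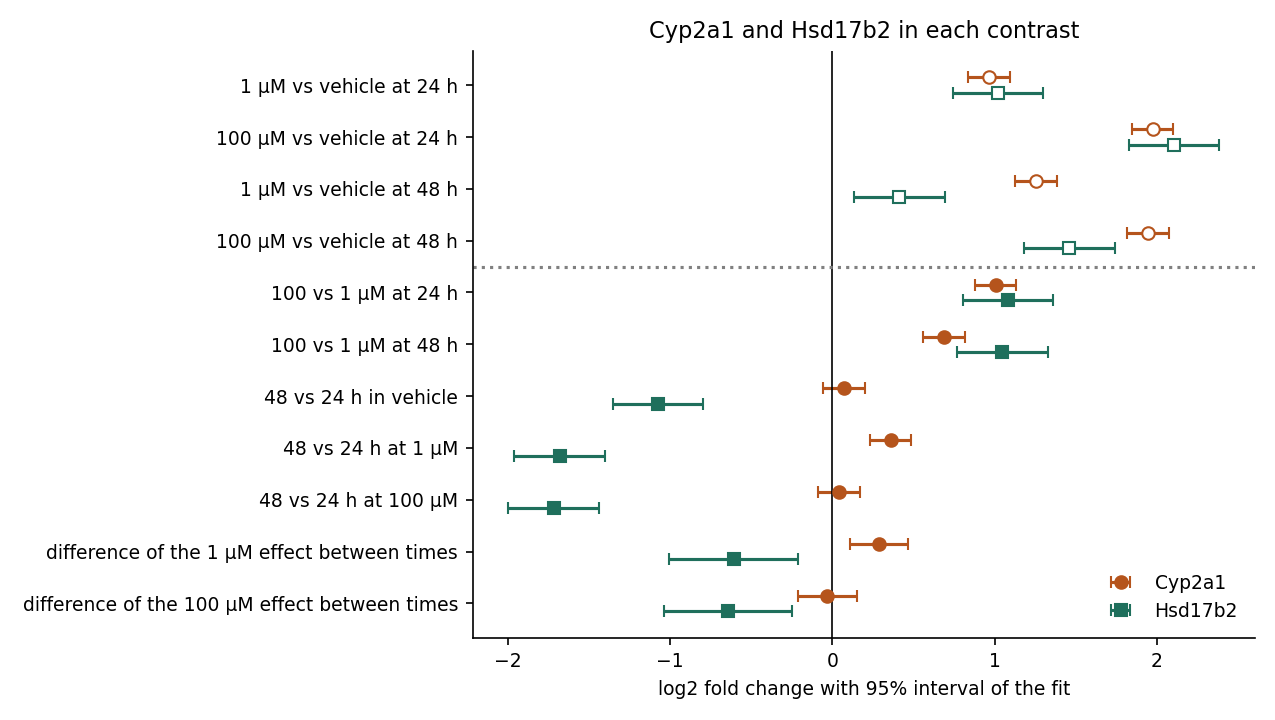
Log2 fold change with its 95% interval for Cyp2a1 (circles) and Hsd17b2 (squares) in each contrast, with open symbols for the contrasts with vehicle that chose the genes and filled symbols for those tested. The Hsd17b2 differences between the times lie at -1.07 in vehicle, -1.68 at 1 µM and -1.72 at 100 µM, while those of Cyp2a1 lie between 0.04 and 0.36.

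The gap between the genes within an array, log2 Cyp2a1 minus log2 Hsd17b2, does not depend on the scaling of the array, and it is read only as a difference between groups. It grew from 24 to 48 h by 1.14 in vehicle, by 2.04 at 1 µM and by 1.76 at 100 µM (exact two-sided permutation test over arrays, p = 0.00794 each, the smallest possible, adjusted p = 0.0132 over 5 comparisons). From 1 to 100 µM it changed by -0.08 (SE 0.11) at 24 h (exact permutation p = 0.508, adjusted p = 0.508). At 48 h it changed by -0.36 (SE 0.14), so Hsd17b2 differed more between the doses than Cyp2a1 (exact permutation p = 0.0397, adjusted p = 0.0496). This last call was lost on leaving out any 1 of 7 of the 10 arrays, with adjusted p up to 0.0992, and the values without 1 array lay between -0.29 and -0.43.

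**Figure D3:**
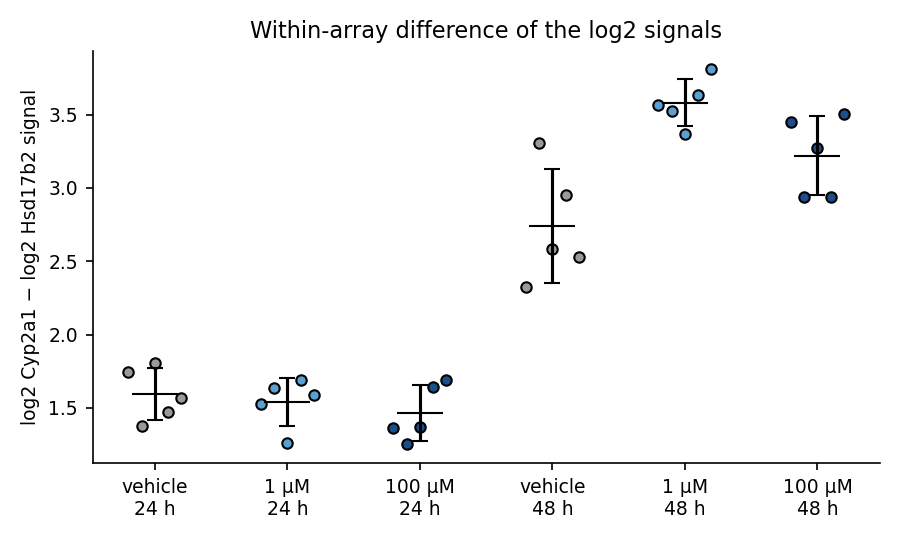
Within-array difference, log2 Cyp2a1 minus log2 Hsd17b2 signal, for each of the 30 arrays (points) by dose and time, with lines for the group mean and whiskers for the SD (n = 5). The groups at 24 h have means between 1.464 and 1.594, and those at 48 h between 2.739 and 3.581, with no overlap between the times.

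Within groups no relation between the genes passed the test. The deviations of log2 signal from the group mean had a Pearson r of 0.0831 (permutation p = 0.718, 100000 permutations) and a Spearman rho of 0.252 (permutation p = 0.228) over 30 arrays. Without the 2 arrays farthest from the median of Cyp2a1 the r was 0.258 (permutation p = 0.228). Both genes of an array share its RNA and its scaling, and after centring every array the r was 0.172 (permutation p = 0.477). The pooled SD within groups was 0.102 log2 units for Cyp2a1 and 0.227 for Hsd17b2, against 0.192 to 0.206 for the median gene across the groups.

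Over all 30 arrays, the genes whose log2 signal was most like that of Cyp2a1, among the 7108 genes above the median mean signal, were Wdr45, an autophagy gene (r = 0.92), Jpt1 (0.904), the quinone reductase Nqo1 (0.89), the membrane-bending protein gene Bin1 (0.885), the phosphomannomutase Pmm1 (0.88) and the biliverdin reductase Blvrb (0.88). Those most opposite were the citrate lyase Acly (r = -0.929), Angptl4, a lipase inhibitor (-0.918), and the gluconeogenic enzyme Fbp1 (-0.917). For Hsd17b2 the most alike were the glutaredoxin Glrx (r = 0.974), Pigx of glycolipid anchor synthesis (0.956), the mRNA decay factor Zfp36l1 (0.95), the AhR-induced P450 Cyp1a2 (0.931), Mospd3 (0.928) and the carbonyl reductase Cbr1 (0.911). The hormone Fgf21 (r = -0.946), the transcription factor Creb3l3 (-0.945) and Tmem150a (-0.944) were most opposite. Cyp2a1 and Hsd17b2 had an r of 0.589 with each other, and Cyp1a1 had 0.856 with Cyp2a1 and 0.793 with Hsd17b2. These r values describe arrays that fall into 6 groups, so they follow the group means, and all genes of an array share its RNA and scaling. Within groups the r of Cyp2a1 with its 6 most alike genes lay between -0.178 (Nqo1) and 0.409 (Bin1). For Hsd17b2 the range was 0.0946 (Pigx) to 0.57 (Cyp1a2), with Zfp36l1 at 0.433. These within-group r values were not tested. Cyp1a2 and Hsd17b2 both fell over time, with vehicle means of 11930 at 24 h and 3374 at 48 h for Cyp1a2.

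**Figure D4:**
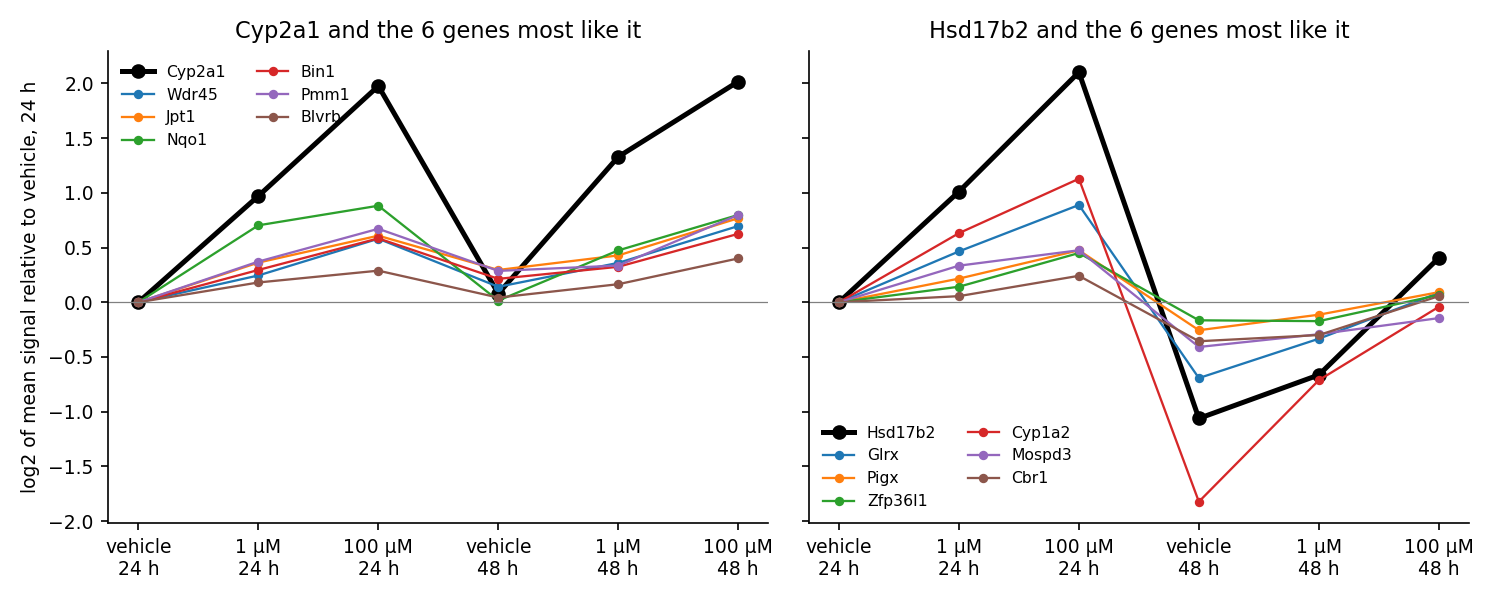
Log2 of the group mean signal relative to vehicle at 24 h, by dose and time, for Cyp2a1 (left) and Hsd17b2 (right), each in black with the 6 genes most like it over the 30 arrays. In vehicle the 6 genes on the left have a mean signal at 48 h that is at or above that at 24 h, while the 6 on the right have a lower one.

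The other genes of steroid metabolism are given from lists that leave out Cyp2a1 and Hsd17b2, with limma calls over all genes. Apart from the Cyp2 cluster, more of each list fell than rose at 100 µM at both times. The share of all genes called lower was 10.4% at 24 h and 8.62% at 48 h. At 1 µM that share was 2.4% at 24 h and 0.521% at 48 h.

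Of 19 other hydroxysteroid and retinol dehydrogenases measured, 1 rose and 4 fell at 1 µM and 24 h, 1 rose and 9 fell at 100 µM and 24 h, 0 rose and 2 fell at 1 µM and 48 h, and 2 rose and 9 fell at 100 µM and 48 h. Their median log2 differences were -0.11, -0.25, -0.04 and -0.24, against 0.03, 0.04, 0.02 and 0.02 for all genes. Within the Hsd17b family, Hsd17b8, a mitochondrial dehydrogenase, rose 1.32-fold at 1 µM and 24 h, 1.43-fold at 100 µM and 24 h and 1.26-fold at 100 µM and 48 h (adjusted p = 0.000615 or less). Its log2 difference at 1 µM and 48 h was 0.15 (adjusted p = 0.423). Hsd17b6 fell 1.73-fold and 1.66-fold at 100 µM at 24 and 48 h, Hsd17b4, a peroxisomal enzyme of fatty acid breakdown, 1.28-fold and 1.18-fold, and the mitochondrial Hsd17b10 1.22-fold and 1.18-fold. Hsd17b12, an enzyme of fatty acid elongation, fell 1.17-fold at 100 µM and 24 h, and at 48 h Hsd17b13, a lipid droplet protein, fell 1.36-fold and Hsd17b7, an enzyme of cholesterol synthesis, 1.16-fold. Hsd17b1, Hsd17b3 and Hsd17b11 passed the test in no contrast with vehicle. Rdh7 and Rdh16, dehydrogenases of retinol and steroids, fell 1.71-fold and 1.86-fold at 100 µM after 24 h, then 3.68-fold and 2.71-fold after 48 h. Hsd11b1, which restores active glucocorticoid in liver, fell 1.36-fold and 1.62-fold at 100 µM. Hsd3b1, of steroid synthesis, was the other gene that rose at 100 µM and 48 h, 1.91-fold (adjusted p = 0.0319) from a low vehicle signal of 36.15 ± 4.907 (SD, n = 5). The 4 lower calls at 1 µM and 24 h were 2 without vehicle replicate 4 or 5 or 1 µM replicate 1, 2 or 4 of 24 h. The 2 lower calls at 1 µM and 48 h were 1 without vehicle replicate 1 or 5 or 1 µM replicate 1 of 48 h. At 100 µM the higher calls were 2 at 24 h without vehicle replicate 2 or 4, and 1 at 48 h without vehicle replicate 1, 2 or 4 or 100 µM replicate 5. With no trend in the fit, the 4 lower calls were 2. With the groups of the contrast alone, the 2 lower calls and the 2 higher calls at 48 h were each 1. With genes at or below the median signal left out, the higher calls at 100 µM were 2 at 24 h and 1 at 48 h. Quantile normalization also gave 2 at 24 h.

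Of 8 steroid reductases and aldo-keto reductases, 0 were called at 1 µM at either time, 1 rose and 5 fell at 100 µM and 24 h, and 2 rose and 4 fell at 100 µM and 48 h (medians -0.07, -0.32, 0.07 and -0.20 in the order used above). Akr1c1 fell 2.34-fold and 5.09-fold at 100 µM, and Akr1d1, the 5β-reductase of bile acid and steroid breakdown, 1.53-fold and 1.73-fold. Akr1c14 fell 1.17-fold and 1.94-fold and Akr1c19 1.34-fold and 1.24-fold. Those that rose were Srd5a3, a polyprenol reductase, at both times (1.22-fold and 1.15-fold), and Akr1c15 at 48 h (2.89-fold, adjusted p = 0.0149). Akr1c15 rose from a low vehicle signal of 43.02 ± 14.89 (SD, n = 5), and at 100 µM and 24 h its log2 difference was -1.09 (adjusted p = 0.0886) from 132.3 ± 115.1. With genes at or below the median signal left out, 1 gene of the list rose at 48 h. With the groups of the contrast alone, 1 fell at 1 µM and 24 h. Without replicate 4 at 100 µM and 24 h, or with each array centred on its median, 3 fell at that dose and time in place of 5.

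Of 21 other steroid-hydroxylating and steroid-making P450s, 0 rose and 1 fell at 1 µM and 24 h, 2 rose and 4 fell at 100 µM and 24 h, 0 rose and 2 fell at 1 µM and 48 h, and 1 rose and 6 fell at 100 µM and 48 h (medians -0.06, -0.16, -0.03 and -0.13). Those that rose were Cyp2a2, given above, and Cyp3a23-3a1, a steroid 6β-hydroxylase induced through the pregnane X receptor, higher by 1.67-fold after 24 h and by 1.36-fold after 48 h. Cyp2d2 fell 1.71-fold and 2.39-fold at 100 µM, Cyp3a18 1.73-fold and 2.49-fold, and Cyp2c22, a retinoid-metabolising P450, 1.36-fold and 2.05-fold. Without vehicle replicate 2 of 24 h, or with each array centred on its median, 1 in place of 2 rose at 100 µM and 24 h. The 2 lower calls at 1 µM and 48 h became 0 or 1 without any 1 of vehicle replicates 3 and 5 and 1 µM replicates 1, 3 and 5 of 48 h. The groups of the contrast alone also gave 0 or 1 there, and 2 in place of 1 lower call at 1 µM and 24 h. From 24 to 48 h in vehicle, 12 of these 21 P450s fell and 0 rose (median -0.69, all genes 0.00), while Cyp2a1 did not pass the test. Of the 19 dehydrogenases, 6 fell and 0 rose over the same time, beside the fall of Hsd17b2. Among all 14217 genes, 1222 were called lower and 1228 higher in this contrast.

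Of 15 genes of glucuronide and sulfate conjugation, 0 rose and 4 fell at 1 µM and 24 h, 2 rose and 5 fell at 100 µM and 24 h, 0 rose and 2 fell at 1 µM and 48 h, and 1 rose and 5 fell at 100 µM and 48 h (medians -0.20, -0.28, -0.22 and -0.20). Ugt2b1, a glucuronosyltransferase, rose 2.76-fold and 2.29-fold at 100 µM and fell 1.46-fold at 1 µM and 48 h (adjusted p = 0.0114). Ugt2b35 was the other that rose, 1.13-fold at 100 µM and 24 h. With each array centred on its median, 1 in place of 2 rose at that dose and time. The 4 lower calls at 1 µM and 24 h were 2 without vehicle replicate 2 or 5 or 1 µM replicate 3, 4 or 5 of 24 h. The 2 lower calls at 1 µM and 48 h were 4 without 1 µM replicate 2, and 1 without vehicle or 1 µM replicate 1, of 48 h. With no trend in the fit, the 4 lower calls at 24 h were 2. With the groups of the contrast alone, the 2 at 48 h were 1. With quantile normalization, 2 in place of 1 rose at 100 µM and 48 h. Ugt2b fell 1.44-fold and 3.96-fold at 100 µM, and the sulfotransferases Sult1a1 and Sult1b1 fell 1.9-fold and 2.29-fold after 24 h, then 3.44-fold and 2.45-fold after 48 h.

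Of 15 steroid and xenobiotic receptors, 0 were called at 1 µM, and at 100 µM 6 fell at 24 h and 5 at 48 h with 0 higher (medians -0.11, -0.11, 0.04 and -0.25). Rarb, a retinoic acid receptor, fell 1.76-fold and 1.67-fold, Nr1i2, the pregnane X receptor, 1.36-fold and 1.55-fold, and Nr1i3, the constitutive androstane receptor, 1.54-fold and 2.28-fold. Rxrg fell 1.38-fold and 1.32-fold on its main probe set. Its other probe set was called at neither time at 100 µM. The log2 differences there were 0.13 at 24 h (adjusted p = 0.813) and 0.27 at 48 h (adjusted p = 0.601). Without vehicle replicate 3 of 24 h, 1 receptor fell at 1 µM and 24 h. The same count held with centred arrays or with genes at or below the median signal left out.

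**Figure D5:**
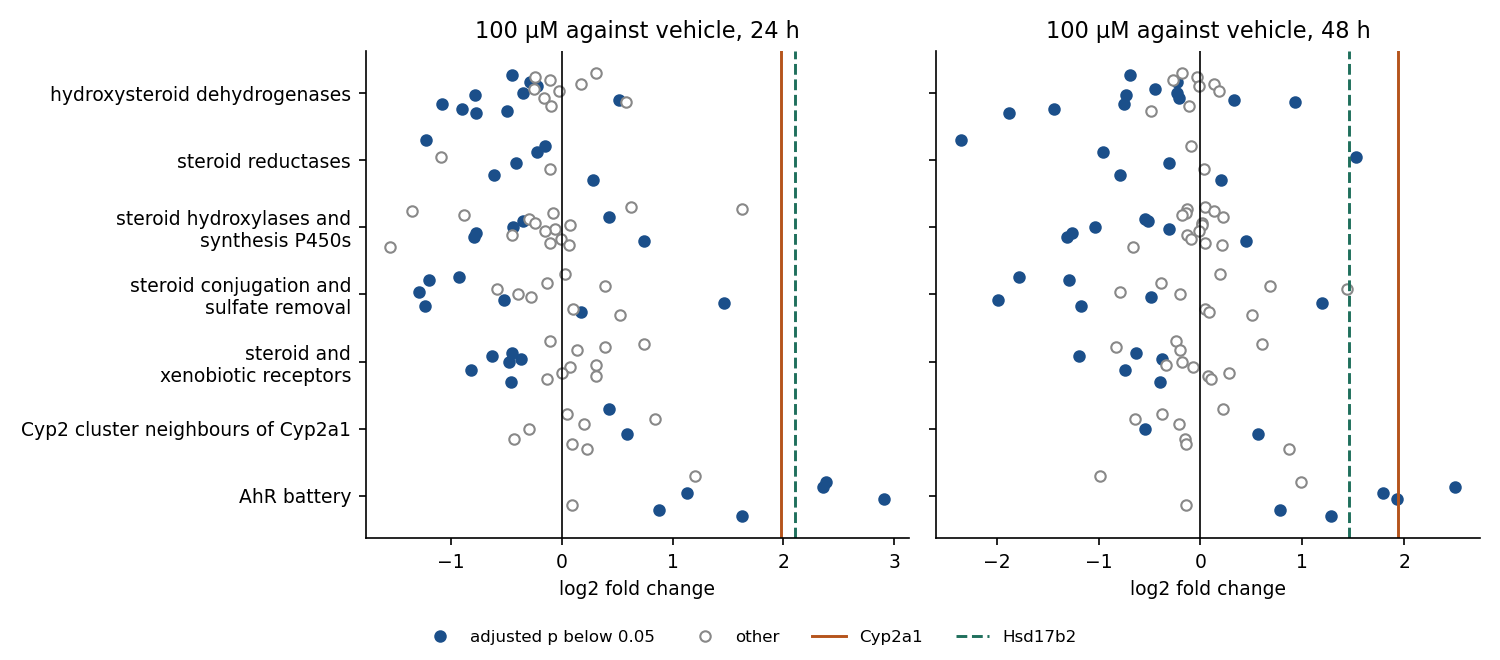
Log2 fold change at 100 µM against vehicle for each measured gene of the steroid and reference lists (filled where the adjusted p is below 0.05), at 24 h (left) and 48 h (right), with lines at Cyp2a1 and Hsd17b2. Most filled points of the dehydrogenase, reductase, hydroxylase, conjugation and receptor lists lie below 0, with the dehydrogenase median at -0.25 and -0.24.

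Along chromosome 1 in GRCr8, Cyp2a1 lies in a cluster of Cyp2 genes between Cyp2a3 and Cyp2a2. Of 9 measured genes of the cluster, 2 rose and 0 fell at 100 µM and 24 h and 1 rose and 1 fell at 100 µM and 48 h, with 0 called at 1 µM (medians 0.21, 0.20, -0.05 and -0.15). Cyp2f4, a P450 best known from lung, rose 1.5-fold and 1.48-fold at 100 µM (adjusted p = 2.53e-05 and 4.99e-05), Cyp2a2 rose at 24 h, and Cyp2b3 fell 1.46-fold at 48 h. Without vehicle replicate 2 of 24 h, or with each array centred on its median, 1 rose at 24 h. Without vehicle replicate 3 of 48 h, 2 rose at 48 h. With genes at or below the median signal left out, 1 fell at 100 µM and 24 h. Cyp2a3, a P450 best known from nasal tissue, had log2 differences of 0.38 and 0.04 at 24 h and -0.16 and -0.37 at 48 h, with adjusted p of 0.365 or more. Hsd17b2 lies on chromosome 19 between Sdr42e1, a dehydrogenase-like gene, and Mphosph6, a gene of ribosomal RNA processing. At 24 h Mphosph6 rose by 0.16 log2 units at 1 µM (adjusted p = 0.015) and by 0.27 at 100 µM (adjusted p = 3.94e-06). After 48 h Mphosph6 rose by 0.18 at 100 µM (adjusted p = 0.00158), and its value at 1 µM was 0.02 (adjusted p = 0.897). Sdr42e1 changed at 100 µM and 48 h, by -0.38 (adjusted p = 0.00751).

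Of the 8 measured AhR battery genes, 4, 6, 3 and 5 rose and 0 fell in the same order of contrasts (medians 0.67, 1.41, 0.34 and 1.13). Among all genes, 1.91%, 10.7%, 0.288% and 8.79% were called higher (medians 0.03, 0.04, 0.02 and 0.02). Ahrr, at a low signal (87.19 in vehicle at 24 h), was called in none of these contrasts. Neither was Cyp2s1, which is also counted in the Cyp2 cluster.

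In bulk RNA, fewer cells of a type and less RNA per cell cannot be told apart. The 13 hepatocyte markers measured summed to signals of 641300 to 717900 in vehicle at 24 h and 559900 to 725400 at 100 µM. At 48 h they summed to 558200 to 662200 in vehicle and 429100 to 531900 at 100 µM, below vehicle without overlap. Of these 13, 2, 4, 0 and 8 fell in the 4 contrasts with vehicle, and 0 rose. Among all genes, 2.4%, 10.4%, 0.521% and 8.62% were called lower in the same order. The 11 Kupffer cell markers summed to 11930 to 12520 and 11430 to 12720 at 24 h, and to 9271 to 10820 and 6971 to 8577 at 48 h, in vehicle and at 100 µM. The 12 stellate cell markers summed to 7790 to 11470 and 6460 to 7568 at 24 h and to 4823 to 6725 and 4862 to 6117 at 48 h. The 6 cholangiocyte markers summed to 10480 to 11730 and 10350 to 11260 at 24 h and to 11680 to 13540 and 9145 to 9842 at 48 h, and the 8 endothelial markers to between 1493 and 3018 on all arrays. Bright single genes carried some of these sums. Without Lox, a collagen cross-linking enzyme whose signal was 5233 in vehicle and 2069 at 100 µM at 24 h, the other 11 stellate markers summed to 4465 to 5526 and 4295 to 5175. Nearly all of the cholangiocyte sum was Epcam (10690 in vehicle at 24 h). Without Epcam the sum at 24 h was 352.9 to 836.7 in vehicle and 239.6 to 378.4 at 100 µM. At 48 h it was 472.7 to 755.6 and 244.7 to 381.3, still without overlap. Without Fgg the hepatocyte sum at 48 h was 486800 to 577900 in vehicle and 374700 to 460100 at 100 µM, also still without overlap. Without Lyz2 the Kupffer sums at 48 h overlapped, 4931 to 5932 in vehicle and 4441 to 5650 at 100 µM. No gene of these lists rose with BNF, and no sum lay above vehicle without overlap where Cyp2a1 and Hsd17b2 rose. From 24 to 48 h in vehicle, as Hsd17b2 fell, the Kupffer sum fell without overlap, with or without Lyz2, and 5 of 11 Kupffer markers were called lower. The stellate sum fell without overlap, but 1 of 12 stellate markers was called lower, Lox (4.06-fold), and without it the sum was 4465 to 5526 at 24 h and 3876 to 4786 at 48 h, which overlapped. The median hepatocyte sum went from 694700 to 612300, with 6 of 13 hepatocyte markers lower. Among all 14217 genes, 1222 were called lower over this time in vehicle. The part of cell makeup in these results was not tested.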

How the data were processed

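RNA of 30 hepatocyte cultures was measured on Affymetrix rat arrays. The deposited values are linear signal intensities per probe set, made by the authors with MAS5 per the submitters' processing notes. They had been scaled before deposit: the mean of each array, with 2% trimmed at each end, was 1500.54 to 1500.6, which hides any change common to most genes. Array medians were 337.8 to 429.1. The background correction is not given in the sources used here, and 0 columns of other samples were present.

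Of 31099 probe sets, 57 controls were left out, and the platform annotation gave 20826 a single gene symbol, 436 several and 9780 none. Of the first, 20758 matched the RefSeq table (assembly GRCr8), used for names and gene order. Where a gene had several probe sets (4525 of the resulting 14217 genes), the one with the highest mean log2 signal stood for it.

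In R 4.3.3 with limma 3.58.1, log2 of the deposited intensities was fitted with a mean per group using every array (30, leaving 24 residual degrees of freedom). Moderated tests (eBayes, trend on) were made for 11 contrasts, with Benjamini-Hochberg adjustment across the 14217 genes and a threshold of 0.05. The fit was tested on simulated data. Genes named from each steroid list are up to 4 with the smallest adjusted p among those called, all measured Cyp2a and Hsd17b genes, the 6 most alike and 3 most opposite genes, and the neighbours. The other genes that rose in a list were named after their values were seen. The genes, lists and tests were chosen with earlier results of these data known. Alternatives were centred or quantile-normalized arrays, log2 of the intensity plus 64, no trend, the groups of a contrast alone, dim genes left out and each array left out.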

Additional observations from a re-analysis of the deposited data

Results flagged for a closer look

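The Cyp2a1 signal of replicate 2 at 100 µM and 48 h, 14362.5, stood apart from the other 4 arrays of its group: its gap to the next was 0.803 of the range, above the 95% critical value of 0.71 for 5 arrays. Chance gives such a value in about 1 in 20 groups, and 18 groups were looked at.

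The effect of 100 µM differed between the times (limma test of the difference) for 5 genes of the steroid lists. For 4 of them the signal fell at 100 µM at both times, and the fall was larger at 48 h than at 24 h. The log2 difference was -1.1 for the retinol and steroid dehydrogenase Rdh7 (adjusted p = 3.62e-05) and -0.73 for the aldo-keto reductase Akr1c14 (adjusted p = 8.83e-05). It was -1.46 for the glucuronosyltransferase Ugt2b (adjusted p = 4.33e-10) and -0.857 for the sulfotransferase Sult1a1 (adjusted p = 0.00013). For the aldo-keto reductase Akr1c15 it was 2.62 (adjusted p = 0.0387), at low signal: vehicle means of 132.3 ± 115.1 at 24 h and 43.02 ± 14.89 at 48 h (SD, n = 5 each).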

How the results depend on the processing

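Over 28 results on Cyp2a1 and Hsd17b2, 461 of 471 alternative values counted as unchanged and 0 as reversed. A tested value counted as unchanged if it kept its side of the threshold. Its change of sign counted as reversed only if it or the main value passed. Values against vehicle counted as unchanged within the replicate spread. Some of the 471 could hardly come out otherwise. Centring cannot change the within-array gap, and leaving out 1 of 5 arrays can hardly move a value against vehicle past that spread. On its own probe set, the difference of the Cyp2a1 100 µM effect between times was -0.03028. Its alternatives ran from -0.0897 to 0.05551, and none passed. With the probe set shared with Cyp2a2, an alternative chosen after seeing the data, the Cyp2a1 log2 rise at 24 h was 0.8205 at 1 µM and 1.691 at 100 µM. On that probe set the log2 difference between the times in vehicle was -0.1616, against 0.07221 on the Cyp2a1 one. There the difference of the 100 µM effect between times was 0.2381. The cause of these differences was not tested. The change of the within-array gap from 1 to 100 µM at 48 h was -0.2994 (exact permutation, adjusted p = 0.0694) with 64 added to each intensity. Without 1 array it ranged from -0.4306 to -0.2888. It was lost without any 1 of replicates 1, 2, 4 and 5 at 1 µM or replicates 2, 3 and 4 at 100 µM (adjusted p from 0.0794 to 0.0992, exact permutation with fewer arrays). Of 896 list counts, 844 stayed within 1.5 times of the main one, 39 were smaller, 13 larger and 0 reversed. Those that moved were counts of 5 or fewer genes. Some of them moved with the scaling, trend, filter or contrast-alone settings, and others without 1 array. Another probe set annotated to either gene alone was not run because each has 1. Replicate numbers follow sample order and only name an array, so no fit with them as a block was made. Centring or quantile normalization moved the median of all genes by under 0.1 log2 units. The number of arrays limits precision, and the low spread of Cyp2a1 gives it narrower intervals than Hsd17b2.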
